A study of Mus musculus with 2 samples.

Results

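DCC, UNC5 and FLRT proteins are surface receptors that migrating neurons use to read guidance cues. DCC binds the secreted cue netrin-1, the product of Ntn1, and is known for attraction of axons and for leading-process behaviour of migrating neurons, whereas the UNC5 receptors convert the netrin response into repulsion. FLRT proteins are leucine-rich repeat membrane proteins whose shed ectodomains bind UNC5 receptors and repel neurons that carry them, and in the mouse cortex the pair of FLRT2 and UNC5D is known for the control of radial migration. FLRT proteins also bind latrophilins and teneurins and take part in adhesion between neurons. Genes of these families were followed here in single cells of the embryonic mouse telencephalon: the receptor gene Dcc, the ligand gene Ntn1, the UNC5 receptor genes Unc5a, Unc5b, Unc5c and Unc5d, and the FLRT genes Flrt2 and Flrt3. They were taken by gene symbol, and all 8 were found among the genes of the count tables.

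The 2 libraries were single-cell RNA-seq (10x 3′ chemistry) of the dorsal telencephalon at embryonic day 14.5, both labelled EomesDot and WT, with replicate numbers 2 and 4. They are called library 2 and library 4. There was no treated or mutant group, so comparisons were made between cell classes within the same libraries. Their titles share the number before the point and differ in the digit after it, and what the shared number marks, such as a litter or dam, is not stated. Nothing in the sources used here says that the libraries came from separate litters or what EomesDot carries beyond its name, and p-values measure only the spread between these 2 libraries.

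Library 2 held 1712 barcodes and 40267872 UMIs (unique molecular identifiers, counts of captured RNA molecules), and library 4 held 2589 barcodes and 49422007 UMIs. After filters, 1199 and 1923 cells remained, with medians of 30810 and 22826 UMIs per cell. The libraries shared 3 barcodes, of which 1 was retained in both. The cells formed 20 clusters, made without the 8 genes and without the 35 pathway genes described later, and each cluster was named only where marker genes supported it.

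The excitatory lineage was described as 4 stages. Radial glia (RGC-like, 211 cells in library 2 and 377 in library 4) are the apical progenitors, and their Pax6 level was 238 and 207 CPM (UMIs per 1000000 UMIs of the class in that library). Intermediate progenitors (IPC-like, 142 and 196 cells) are the basal progenitors marked by Eomes, which was at 513 and 642 CPM against 24.5 and 19.4 CPM in RGC-like cells. Newborn migrating excitatory neuron-like cells (132 and 259) kept Eomes at 236 and 345 CPM and carried Neurod1, a factor of young neurons, at 318 and 331 CPM. Later excitatory neuron-like cells (424 and 603) had Eomes at 4.81 and 2.64 CPM with Tbr1, a regulator of projection neuron identity, among the raised markers of 4 of their 5 clusters. The stages are an order of marker genes, not a measured time or position. A cluster of 192 cells with mixed markers of the cortical hem and all earlier stages was left out of the stages and is described on its own.

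Unc5c, Flrt3, Flrt2 and Unc5a were higher in later than in newborn neurons, as given below, and the 250 bases before the transcription starts of Unc5c and Flrt3 are shown as examples from RefSeq, build GRCm38.p6. Promoter windows were matched for 5 of the 8 genes, and the pair to print was chosen with their motif counts known. Capitals mark CAGATG, a form of the E-box read by proneural factors such as NEUROD and NEUROG proteins, on either strand. The Unc5c window lies at chr3:141465314-141465563 on the plus strand and the Flrt3 window at chr2:140671477-140671726 on the minus strand.
Unc5c: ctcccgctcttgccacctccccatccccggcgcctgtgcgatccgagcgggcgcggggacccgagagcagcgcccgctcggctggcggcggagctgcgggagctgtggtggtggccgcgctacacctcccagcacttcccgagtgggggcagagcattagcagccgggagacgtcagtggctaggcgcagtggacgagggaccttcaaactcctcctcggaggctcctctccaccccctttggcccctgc
Flrt3: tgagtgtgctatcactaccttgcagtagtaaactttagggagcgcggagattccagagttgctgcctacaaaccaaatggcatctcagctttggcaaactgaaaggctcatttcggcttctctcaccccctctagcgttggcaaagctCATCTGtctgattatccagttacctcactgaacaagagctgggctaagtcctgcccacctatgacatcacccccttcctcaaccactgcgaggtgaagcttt
The Flrt3 window held 1 CAGATG, on its other strand, and no CAGCTG or CAGGTG. The Unc5c window and the windows of Flrt2, Unc5a and Unc5b, which are not printed, held none of these letter runs in either orientation. Of 32851 promoter windows of the same length, 14.4% held CAGATG, 13.0% held CAGCTG, 17.2% held CAGGTG and 38.1% held any of them, so a match in 1 window is a description of its letters only. The share of G and C was 71.2% in the Unc5c window.

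Dcc was low in radial glia and high from the intermediate progenitor onward. The gene (ENSMUSG00000060534) is long, spanning 1097616 bases in build GRCm38.p6, and Unc5d (ENSMUSG00000063626) spans 572955 bases there, so levels are compared between classes for each gene and never between genes. The Dcc level was 467 CPM in library 2 and 874 CPM in library 4 in RGC-like cells, and 6149 and 5488 CPM in IPC-like cells. In newborn neurons it was 6626 and 7262 CPM, and in later neurons 4302 and 4698 CPM. Every library value of the 3 later stages lay above both values of the RGC-like class, and the newborn values lay above those of both neighbouring stages. The means were 670 ± 287 CPM for the RGC-like class, 5818 ± 468 CPM for the IPC-like class, 6944 ± 450 CPM in newborn and 4500 ± 280 CPM in later cells (SD, n = 2 libraries each).

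In edgeR's quasi-likelihood test, the IPC-like class had 8.81-fold more Dcc than the RGC-like class (log2 difference 3.14 ± 0.80, SE, adjusted p = 0.0123). From library 2 alone the log2 difference was 3.76. The next 2 steps did not pass the test: the log2 difference was 0.41 ± 0.74 from IPC-like to newborn cells (adjusted p = 0.732) and -0.54 ± 0.74 from newborn to later cells (adjusted p = 0.668). The rise into the IPC-like class was called in 12 of 15 alternatives and was lost with doublets kept, with coarser clusters and with genes scaled within each library, where the log2 differences were 2.86 (adjusted p = 0.058), 1.70 (adjusted p = 0.158) and 0.75 (adjusted p = 0.573).

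The progenitor classes were not uniform for Dcc. The non-cycling IPC-like cluster of 185 cells had 7435 and 8139 CPM, and the IPC-like cluster of 153 cells that carried Mki67 and Top2a, genes of dividing cells, had 3398 and 3150 CPM. Both RGC-like clusters stayed between 410 and 892 CPM. The 2 IPC-like clusters therefore did not overlap across libraries, with 2.38-fold between their means, a difference given as a description with no test.

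Unc5d, the UNC5 receptor known from cells of the subventricular and intermediate zones, had its highest level in newborn neurons. It was at 68.5 CPM in library 2 and 53.0 CPM in library 4 in RGC-like cells and at 393 and 962 CPM in IPC-like cells. It reached 4668 and 5719 CPM in newborn neurons and was at 781 and 954 CPM in later neurons. The newborn values stood apart from every other stage in both libraries, while the IPC-like and later values overlapped. The IPC-like class was not uniform for Unc5d. Its cycling cluster had 743.4 CPM in library 2 and 1442 CPM in library 4, and its non-cycling cluster 229.6 and 418.5 CPM. These values did not overlap, in the order opposite to that of Dcc, and were not tested.

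All 3 steps of Unc5d passed the test. It was 11.3-fold higher in the IPC-like than in the RGC-like class (log2 3.50 ± 0.84, adjusted p = 0.00854) and a further 8.55-fold higher in newborn neurons (log2 3.1 ± 0.82, adjusted p = 0.0134). It then fell by 2.50 on the log2 scale in later neurons (SE 0.80, adjusted p = 0.0387), which is 5.64-fold lower. The step to newborn neurons held in 11 of 15 alternatives. It was lost with at least 500 genes (log2 1.17, adjusted p = 0.425), at most 5% mitochondrial UMIs (1.84, adjusted p = 0.144), doublets kept (1.19, adjusted p = 0.451) and classes made from separate UMIs (0.92, adjusted p = 0.375). The fall into later neurons held in 10 of 15, among them the block on the library. It was lost in DESeq2's Wald test and under 3 changes of the cell filters. It was also lost when sub-clusters of the mixed cluster were counted in their classes. The log2 value of this fall ran from -3.26 to -1.85 over the 15 alternatives. The first call was lost only with genes scaled within each library (log2 0.37). Its log2 difference was 2.56 from library 2 alone and 4.17 from library 4 alone, and that of the step to newborn neurons was 3.69 from library 2 alone.

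Flrt2, whose product is a ligand for UNC5D, went through a low point in intermediate progenitors and rose in neurons. It was at 40.2 CPM in library 2 and 36.5 CPM in library 4 in RGC-like cells, and at 8.26 and 11.1 CPM in IPC-like cells. It was at 37.3 and 27.4 CPM in newborn neurons and at 331 and 363 CPM in later neurons. The later values were the highest and the IPC-like values the lowest of the 4 stages in both libraries.

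Flrt2 fell by 1.95 on the log2 scale from RGC-like to IPC-like cells (SE 0.49, adjusted p = 0.0113, 3.87-fold lower). It rose 3.66-fold in newborn neurons (log2 1.87 ± 0.50, adjusted p = 0.0149) and 11.5-fold from newborn to later neurons (log2 3.52 ± 0.46, adjusted p = 0.000129). The rise into later neurons was called in all 15 alternatives, with log2 values from 2.29 to 3.56. The earlier steps were less firm, since with a filter of at least 500 genes per cell the first was 0.32 in the opposite direction (adjusted p = 0.729), the second was lost under the same filter, and both were lost with at most 5% mitochondrial UMIs.

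Flrt3, the related FLRT gene, varied less. Its level was 30.8 and 36.9 CPM in RGC-like cells, 20.4 and 26.0 CPM in IPC-like cells, 39.2 and 29.1 CPM in newborn and 77.6 and 55.3 CPM in later cells. Only the step to later neurons passed the test, at 2.08-fold (log2 1.06 ± 0.30, adjusted p = 0.0233), and this call was lost in 8 of 15 alternatives. RGC-like and newborn cells overlapped.

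Unc5c and Unc5a, the other UNC5 receptors seen in neurons, were low until the later stage. Unc5c was at 3.49 and 3.09 CPM in RGC-like cells, 8.0 and 7.54 CPM in IPC-like cells, 1.11 and 5.33 CPM in newborn and 26.0 and 84.6 CPM in later cells. Unc5a was at 0.27 and 0.60 CPM in RGC-like cells, 5.42 and 7.54 CPM in IPC-like cells, 5.29 and 5.33 CPM in newborn and 14.9 and 16.3 CPM in later cells. The later values of each gene lay above all earlier ones in both libraries, but for Unc5c they differed 3.26-fold between the libraries.

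From newborn to later neurons Unc5c rose 16.5-fold (log2 4.04 ± 0.86, adjusted p = 0.00386) and Unc5a 3.1-fold (log2 1.63 ± 0.44, adjusted p = 0.0174). Unc5a had also risen 13.7-fold from RGC-like to IPC-like cells (log2 3.78 ± 0.65, adjusted p = 0.000972), from 8 UMIs over 588 cells to 55 UMIs over 338 cells. The Unc5a rise into later neurons was lost with doublets kept (log2 1.36, adjusted p = 0.0504) and with classes made from separate UMIs (1.21, adjusted p = 0.108). The Unc5a step into IPC-like cells was called in all 15 alternatives, and its log2 difference was 3.03 from library 2 alone and 2.91 from library 4 alone. The Unc5c rise was -0.96 in the other direction (adjusted p = 0.335) when classes were made from separate UMIs, where none of the 391 newborn cells kept that class and the newborn class held 102 other cells, 92 of them from the mixed cluster. It was also lost with at least 500 genes per cell and with doublets kept, at log2 1.70 (adjusted p = 0.0651) and 2.07 (adjusted p = 0.0983). Mixed-cluster cells made up 38.8% and 95.8% of the newborn class there and 90.2% with separate UMIs. They made up 12.8% and 16.8% at Leiden resolutions 0.5 and 2 and 24.6% with at most 5% mitochondrial UMIs, where the call held, and their part was not tested. From IPC-like to newborn cells Unc5c did not pass the test, but with classes made from separate UMIs it was called higher (log2 4.58, adjusted p = 0.00271), against the direction of the fit reported here.

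Ntn1 and Unc5b had the fewest UMIs of the 8 genes over the 4 stages, with 207 and 226 UMIs. Ntn1 was at 4.84 and 10.9 CPM in RGC-like cells (145 UMIs in all), 1.55 and 3.77 CPM in IPC-like cells (23 UMIs), 0 and 0.74 CPM in newborn neurons (4 UMIs) and 0.57 and 1.60 CPM in later neurons (35 UMIs). No step of Ntn1 passed the test in the fit reported here, but several passed it under other settings and in both directions. From RGC-like to IPC-like cells it was lower with at least 500 genes per cell (log2 -2.01, adjusted p = 0.0251) and at Leiden resolution 0.5 (-2.62, adjusted p = 0.00298), the direction of the fit reported here (-1.52, adjusted p = 0.146), and 0.80 in the other direction without passing the test when sub-clusters of the mixed cluster were counted in their classes (adjusted p = 0.351). From IPC-like to newborn cells it was higher with at least 500 genes per cell (log2 3.36, adjusted p = 0.00182) and with doublets kept (2.88, adjusted p = 0.0223), and lower with genes scaled within each library (adjusted p = 0.0113) and with sub-clusters of the mixed cluster counted in their classes (log2 -4.05, adjusted p = 0.0025). From newborn to later cells it was lower with at least 500 genes (-3.61, adjusted p = 0.000254), doublets kept (-3.36, adjusted p = 0.0068) and separate UMIs (-3.79, adjusted p = 0.00428). Mixed-cluster cells counted as newborn numbered 184, 92 and 92 in those 3 settings, and their part in these values was not tested. No direction is given for Ntn1 in the steps after the IPC-like class. Unc5b was at 3.22 and 2.09 CPM in RGC-like cells, 1.03 and 12.4 CPM in IPC-like cells, 1.67 and 2.21 CPM in newborn and 4.30 and 2.15 CPM in later cells. The 2 libraries disagreed on the sign of its change from RGC-like to IPC-like cells, and none of its steps passed the test.

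**Figure D1:**
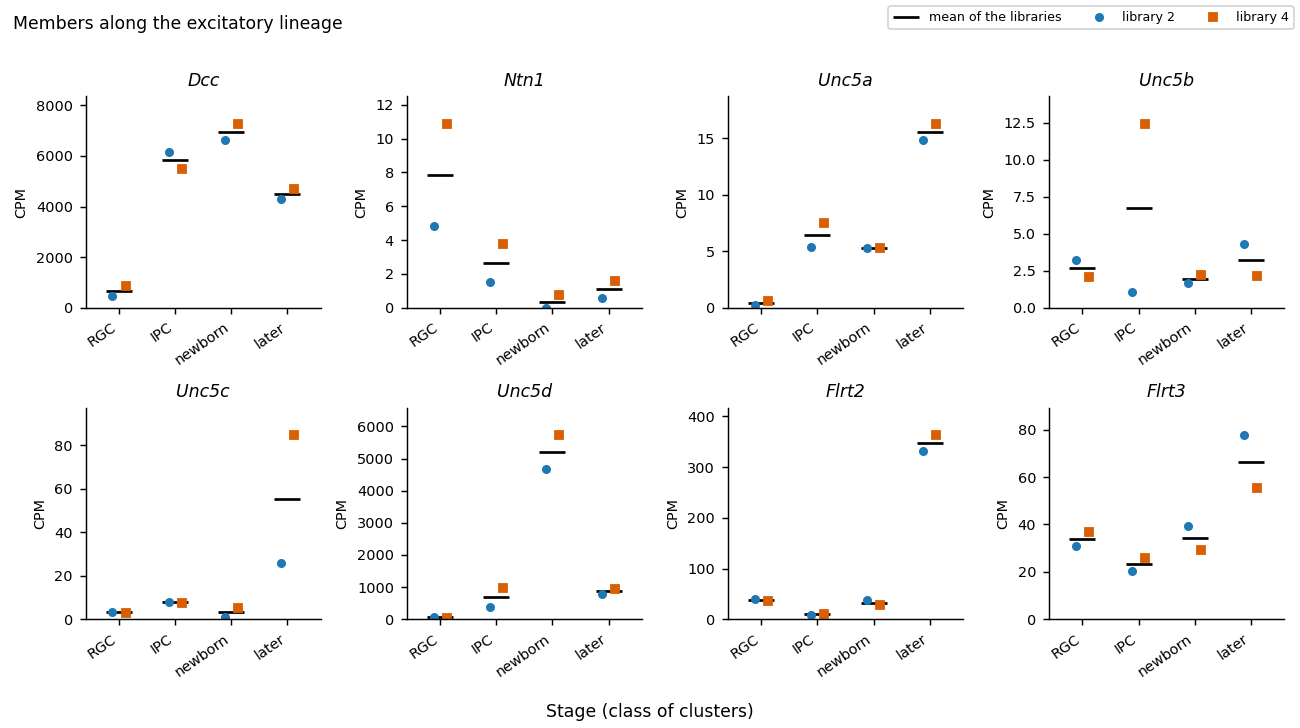
Level of each gene in UMIs per 1000000 UMIs (CPM, vertical axis, from 0) in the 4 stages of the excitatory lineage (horizontal axis). Circles are library 2, squares library 4 and bars their mean. Dcc is high from the IPC-like stage on, Unc5d stands at 4668 and 5719 CPM in newborn neurons, and Flrt2 at 331 and 363 CPM in later neurons.

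These counts were read against the share of all 14502 genes tested. From RGC-like to IPC-like cells, 23.3% of all genes were called, 12.4% higher and 10.8% lower, and 4 of the 8 genes were called, 3 higher and 1 lower. From IPC-like to newborn cells, 26.1% were called, 11.7% higher and 14.4% lower, and 2 of the 8 genes were called, both higher. From newborn to later cells, 22.4% were called, 13.9% higher and 8.45% lower, and 5 of the 8 genes were called, 4 higher and 1 lower. All 8 genes passed the filter on low counts of the whole fit. The median log2 fold change over the 8 genes was 1.33, 0.13 and 1.21 in these steps, beside 0.00, -0.01 and 0.06 over all genes.

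**Figure D2:**
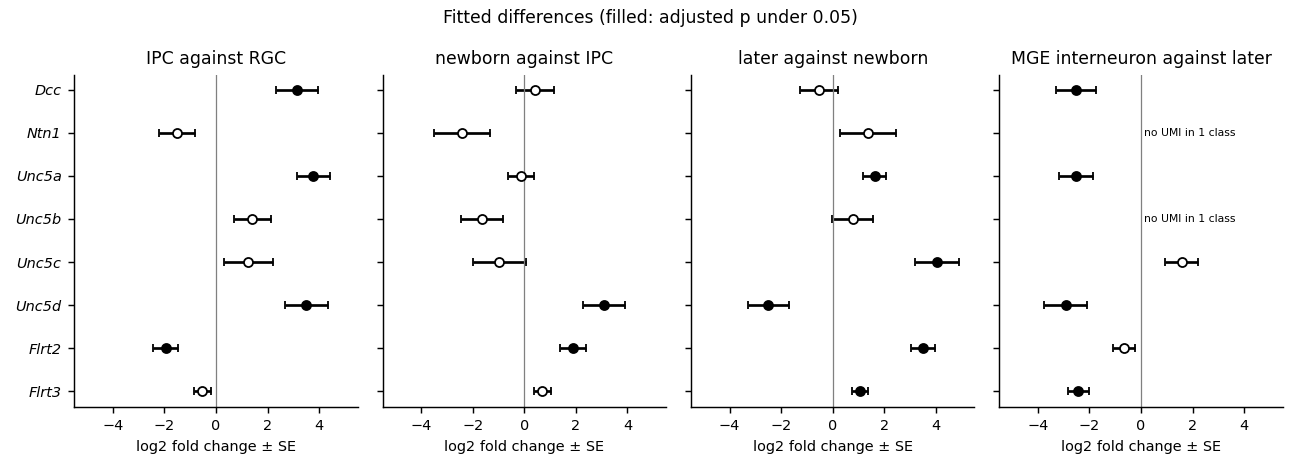
Fitted log2 fold change of each gene with its SE (horizontal axis) in each of 4 comparisons. Filled circles passed an adjusted p of 0.05, and a gene with no UMI in 1 class has no point. Unc5d moves up, up and down along the 3 lineage steps, and Flrt2 down, up and up.

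The share of cells with at least 1 UMI was taken at equal depth, with each cell thinned to 5000 UMIs. Unc5d was detected in 97.7% of 129 newborn cells of library 2 and 97.6% of 247 of library 4, in 17.0% and 12.3% of RGC-like cells, in 28.1% and 39.7% of IPC-like cells and in 45.5% and 48.0% of later cells. Dcc was detected in 100% and 99.6% of newborn, 60.2% and 64.1% of RGC-like, 87.5% and 87.7% of IPC-like and 93.6% and 90.8% of later cells, so for Dcc the share was higher in later than in IPC-like cells while the CPM was lower, and no order of those stages is read from it. In meningeal-like cells, in which these neuronal receptors would not be looked for, Dcc was found in 5.56% of 18 and 7.14% of 28 cells and Unc5d in 0% and 7.14%, at median depths before thinning of 41370 and 26700 UMIs against 26720 and 21160 UMIs in newborn cells. A count of 0 of 18 cells allows a share of up to 16.7%, and such limits cover counting error only. Endothelial-like cells, a further class of this kind, had Dcc in 33.3% and Unc5d in 22.2% of 9 cells of library 2 and neither in 12 cells of library 4, which allows a share of up to 25%, at median depths of 16900 and 16680 UMIs. The Unc5d shares of RGC-like cells were above those of meningeal-like cells in both libraries. They were below the endothelial-like share in library 2 and below the 25% limit in library 4. With so few control cells these shares cannot decide whether RGC-like cells express Unc5d, and no expression is read from them.

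Flrt2 was detected in 54.8% and 55.7% of later cells after thinning, against 14.7% and 8.50% of newborn and 2.34% and 2.23% of IPC-like cells. Without thinning the shares were 81.8% and 74.3%, 25.8% and 18.9%, and 9.15% and 12.2%. Cells under 5000 UMIs, 3 and 12 of the newborn, 14 and 17 of the IPC-like, 5 and 12 of the RGC-like and 4 and 16 of the later cells, were left out of the thinned values. The order of these 3 stages was the same on both scales. After thinning, meningeal-like cells had Flrt2 in 77.8% and 96.4% of cells, so they give no background share for this gene.

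Joint detection of pairs of these genes in the same cell was counted. After thinning, Dcc and Unc5d were detected together in 126 of 129 newborn cells of library 2 and in 240 of 247 of library 4. Dcc was found in 129 and 246 of these cells, so the joint counts follow from the share of each gene. In later cells both were found in 178 of 420 and 251 of 587. Unc5d and its ligand gene Flrt2 were found together in 86 of 420 later cells of library 2 and 120 of 587 of library 4. Flrt2 was detected in 45.0% and 42.6% of later cells with an Unc5d UMI and in 62.9% and 67.9% of later cells without one, a lower share with than without Unc5d in both libraries. These shares are a description across cells of the same libraries, with no test.

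The later class was made of 5 clusters, which differed widely in Unc5d and Flrt2. The cluster led by Adamtsl3, Ndst3, Nrp1 and Plxna4 (151 cells), in which 6 of 9 newborn markers were still raised, had Unc5d at 3126 CPM in library 2 and 3967 CPM in library 4 and Flrt2 at 166 and 145 CPM. The cluster led by Cntn2 and Kcnq3 (365 cells) had Unc5d at 872 and 963 CPM and Flrt2 at 246 and 320 CPM. The cluster led by Lrfn5, Rgs6 and Hs3st4 (311 cells), in which 7 of 8 deep-layer markers were raised, had Unc5d at 19.2 and 12.8 CPM and Flrt2 at 547 and 560 CPM. The mean of Unc5d was 222-fold higher in the first than in the last of these clusters, Flrt2 was higher in the last, and the values of neither gene overlapped between them.

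The remaining later clusters were smaller. The cluster led by Tafa1, Tafa2 and Lrfn5 (152 cells, 39 in library 2 and 113 in library 4) had Unc5c at 138 and 241 CPM, the highest among the later clusters in both libraries. It also had Flrt2 at 120 and 153 CPM, Unc5d at 923 and 1095 CPM and Dcc at 4196 and 2011 CPM. The cluster led by Slit3, Lrfn5 and Lrrtm4 (48 cells) had Dcc at 5506 and 7227 CPM, Unc5d at 199 and 126 CPM, Flrt2 at 221 and 375 CPM and no Unc5c UMI in library 2. The cluster highest in Unc5d was thus not the lowest in Flrt2 by mean, which was the Tafa1 cluster, and over all 5 clusters the genes did not follow exactly opposite orders. The leading genes of the Slit3 cluster also held Crym and Zfpm2, known from deep-layer and subplate neurons, and it was given no layer name.

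Unc5c and Flrt3 differed among the later clusters in their own ways. Unc5c was at 18.3 CPM in library 2 and 122 CPM in library 4 in the Hs3st4 cluster, and at 15.2 and 10.5 CPM in the Cntn2 cluster. The difference of Unc5c between the libraries in the later class moved with the 39 and 113 cells of the Tafa1 cluster and with the values of the Hs3st4 cluster, and the part of each in it was not tested. Flrt3 was at 113 and 90.0 CPM in the Cntn2 cluster and 105 and 93.0 CPM in the Adamtsl3 cluster, against 23.3 and 13.7 CPM in the Hs3st4 cluster, so it was low where Flrt2 was highest. Dcc was lowest in the Adamtsl3 cluster, at 2178 and 1891 CPM, and was 4712 and 5695 CPM in the Hs3st4 cluster. No test was run between clusters, since the clusters had been made from other genes of the same cells.

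**Figure D3:**
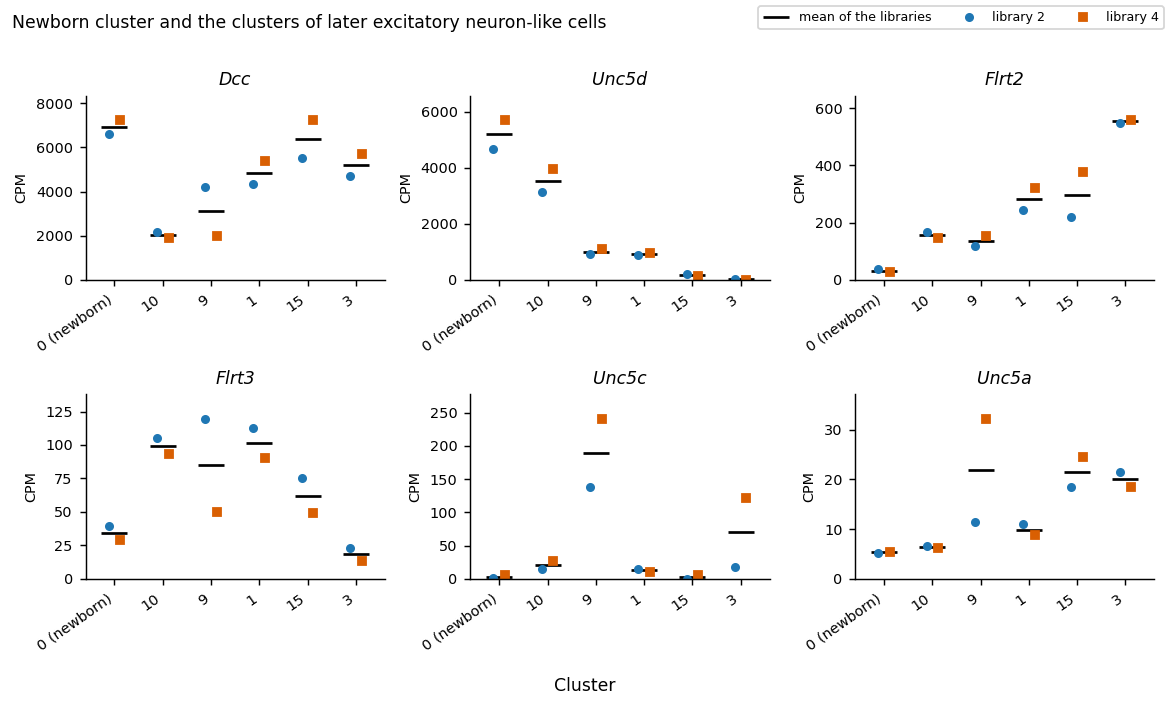
CPM of 6 genes (vertical axes, from 0) in the newborn cluster and the 5 clusters of later cells (horizontal axis: 10 is led by Adamtsl3, 9 by Tafa1, 1 by Cntn2, 15 by Slit3 and 3 by Lrfn5 and Hs3st4). Circles are library 2, squares library 4, bars their mean. Unc5d drops from 4668 and 5719 CPM in the newborn cluster to 19.2 and 12.8 CPM in cluster 3, where Flrt2 stands at 547 and 560 CPM.

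Tangentially migrating interneurons were compared with the later excitatory neurons of the same libraries. MGE interneuron-like cells (54 and 81) carried Lhx6, a factor of interneurons born in the medial ganglionic eminence, at 292 and 254 CPM. Their Dcc level was 909 CPM in library 2 and 798 CPM in library 4, 5.73-fold below later neurons (log2 -2.52 ± 0.78, adjusted p = 0.0394). Unc5d was at 74.7 and 177 CPM, 7.53-fold lower (log2 -2.91 ± 0.83, adjusted p = 0.0265).

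Flrt3 was at 15.3 and 11.4 CPM in these interneurons, 5.38-fold lower (log2 -2.43 ± 0.41, adjusted p = 0.000951), and Unc5a at 1.61 and 4.37 CPM from 7 UMIs, 5.72-fold lower (log2 -2.52 ± 0.66, adjusted p = 0.0169, and -1.93 from library 4 alone). Unc5c was at 179 and 181 CPM against 26.0 and 84.6 CPM, and Flrt2 at 259 and 218 CPM against 331 and 363 CPM. Neither passed the test in the fit reported here (log2 1.58 ± 0.65, adjusted p = 0.115, and -0.66 ± 0.42, adjusted p = 0.32). No Ntn1 or Unc5b UMI was found among 2389804 UMIs of these cells. A count of 0 allows up to 3 UMIs in each library, or 2.41 and 2.62 CPM. Unc5b in later neurons was at 4.30 and 2.15 CPM and Ntn1 at 0.57 and 1.60 CPM, so at this depth no fold is given for either gene (adjusted p = 0.151 for Unc5b).

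Over all genes 18.8% were called in this comparison, 6.56% higher and 12.2% lower in the interneurons, and 4 of the 8 genes were called, all lower. The Flrt3 and Unc5a calls held in all 15 alternatives, and the Dcc and Unc5d calls in 12 of 15 each. The Dcc call was lost with doublets kept (log2 -2.48, adjusted p = 0.116), at Leiden resolution 2 (-2.50, adjusted p = 0.0545) and with DESeq2's size factors (-2.41, adjusted p = 0.05 when rounded). The Unc5d call was lost with doublets kept (-1.86, adjusted p = 0.226), at Leiden resolution 0.5 (-1.91, adjusted p = 0.12) and when later clusters with more newborn leading genes were counted as newborn (-2.16, adjusted p = 0.0828). The interneuron-like cells of library 4 were shallower, with a median of 11150 UMIs against 26080 UMIs in its later neurons. Calls for all 4 held when every cell was thinned to 5000 UMIs. Under that thinning Unc5c was called higher in the interneurons (log2 1.77, adjusted p = 0.0118). It was also called with genes scaled within each library (1.86, adjusted p = 0.0387). Unc5b was called lower with at most 5% mitochondrial UMIs (adjusted p = 0.0153) and in DESeq2's Wald test (adjusted p = 0.0486). Flrt2 was called lower when other classes were left out of the fit (log2 -0.59, adjusted p = 0.025). None of these genes was called under any other alternative. The comparison mixes lineage, region of origin and mode of migration, which cannot be told apart in these classes.

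Other classes gave the highest levels of several genes. Unc5b, known from endothelial tip cells, was at 51.1 and 128 CPM in endothelial-like cells (9 and 18 cells) and at 79.8 and 98.2 CPM in Cajal-Retzius-like cells (16 and 23 cells), the Reln-expressing neurons of the marginal zone. Cajal-Retzius-like cells also held Dcc at 7254 and 5578 CPM, Unc5a at 37.4 and 42.7 CPM and Unc5c at 62.3 and 317 CPM. Meningeal-like cells (18 and 30) had Flrt2 at 410 and 1081 CPM and Unc5c at 169 and 114 CPM. These classes are small and their values were not tested.

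Other GABAergic neuron-like cells (28 and 125) had Unc5c at 353 and 112 CPM, Flrt2 at 250 and 616 CPM and Ntn1 at 22.9 and 13.7 CPM. Striatal projection neuron-like cells came almost wholly from library 4 (37 cells, against 1 in library 2) and had Ntn1 at 87.2 CPM there from 49 UMIs. Hem or choroid plexus-like cells (19 and 9), with the choroid plexus gene Ttr at 148100 and 154800 CPM, had Ntn1 at 14.5 and 35.5 CPM and Dcc at 77.1 and 18.9 CPM. The highest Ntn1 levels of the named classes were thus outside the excitatory lineage.

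**Figure D4:**
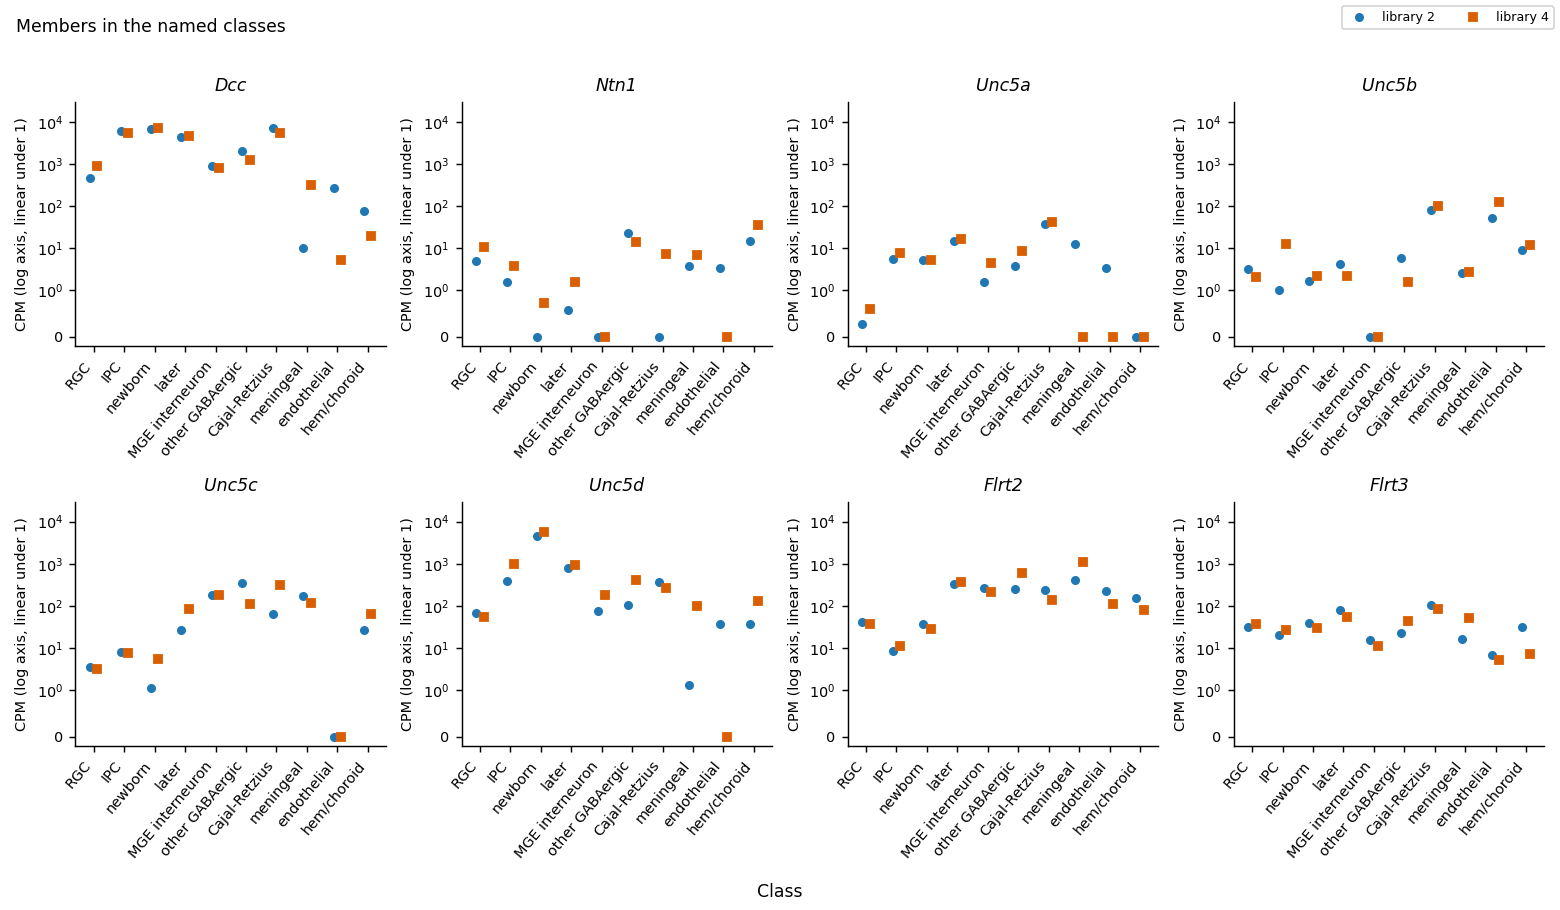
CPM of each gene (vertical axis, logarithmic above 1 and linear below) in 10 named classes (horizontal axis). Circles are library 2 and squares library 4. Unc5b is at 51.1 CPM or more in endothelial-like and Cajal-Retzius-like cells, and both libraries hold no Unc5b or Ntn1 UMI in MGE interneuron-like cells.

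The mixed cluster of 192 cells had the highest Dcc level among clusters with more than 1 cell in each library, at 8849 CPM in library 2 and 10400 CPM in library 4. Its leading genes were Ttr, Eomes, Rspo3, Tmem132c and Sox2ot, with raised markers of radial glia, intermediate progenitors and the hem. Clustered again on its own it gave 6 sub-clusters. The RGC-like one (46 cells) had Dcc at 5423 and 7942 CPM, against 467 and 874 CPM in the RGC-like class, so the values did not overlap.

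In the sub-cluster with all 8 IPC markers (37 cells) Dcc was at 13380 and 20240 CPM and Ntn1 at 109 and 127 CPM, against 6149 and 5488 CPM and 1.55 and 3.77 CPM in the IPC-like class. A further IPC-like sub-cluster (25 cells) had Dcc at 1993 and 5351 CPM and Ntn1 at 0 and 11.4 CPM, so the high level was not shared by all IPC-like cells of the mixed cluster. The 2 newborn-like sub-clusters (34 and 28 cells) had Unc5d at 4853 and 2988 CPM and at 4085 and 4192 CPM in libraries 2 and 4 of each, against 4668 and 5719 CPM in the newborn class. The hem or choroid plexus-like sub-cluster (22 cells) had Flrt2 at 597 and 732 CPM, Ntn1 at 22.1 and 192 CPM and Dcc at 5433 and 9158 CPM. No spatial position was measured, and no test was made on sub-clusters, which were chosen after their values were seen.

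**Figure D5:**
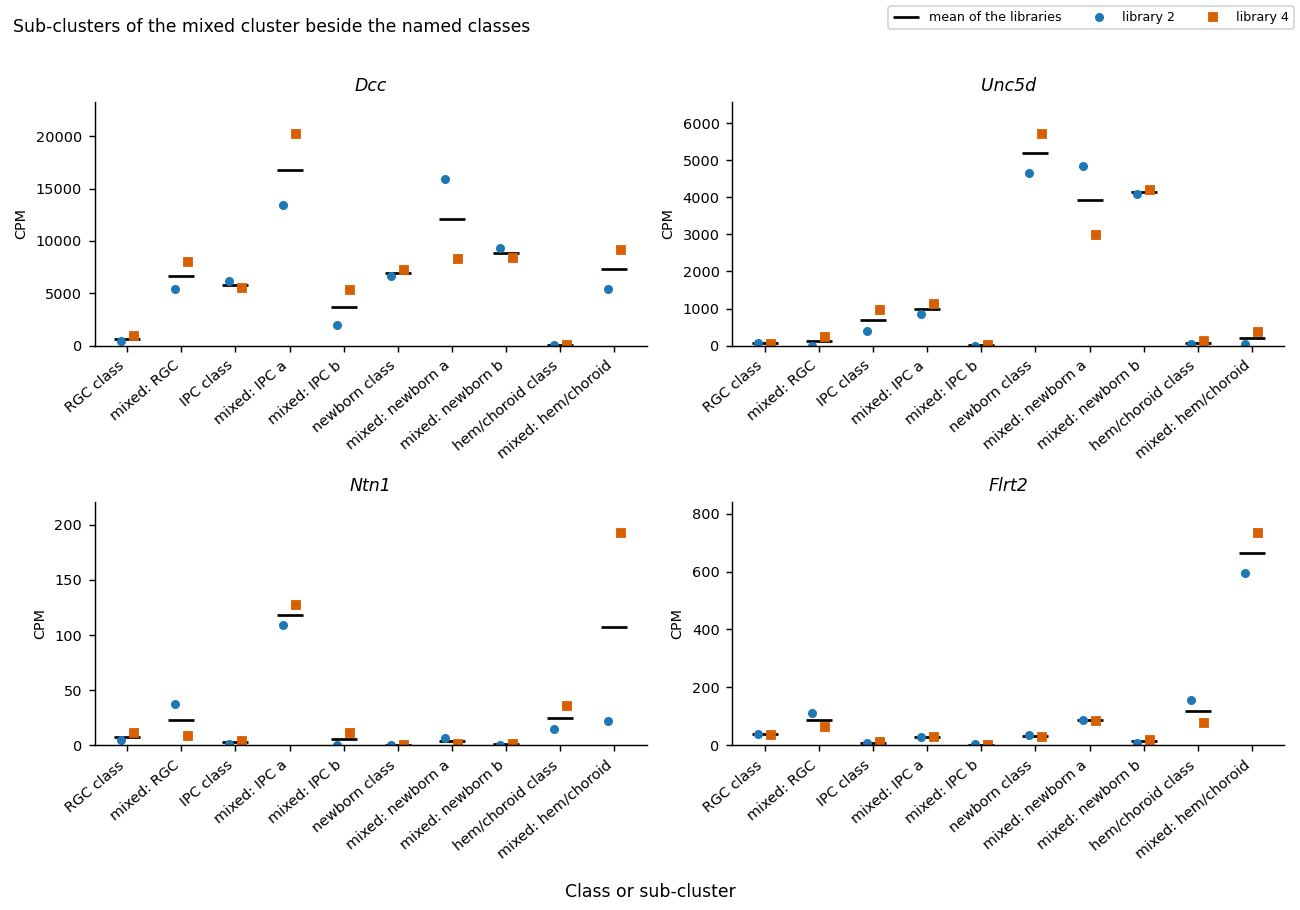
CPM of Dcc, Unc5d, Ntn1 and Flrt2 (vertical axes, from 0) in the named classes and in the sub-clusters of the mixed cluster that took the same names (horizontal axis). Circles are library 2, squares library 4, bars their mean. Dcc is at 5423 and 7942 CPM in the RGC-like sub-cluster, against 467 and 874 CPM in the RGC-like class, and Ntn1 at 109 and 127 CPM in 1 of the 2 IPC-like sub-clusters.

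Genes that act with these receptors were read from 3 lists. Over all genes, 12.4% were called higher and 10.8% lower from RGC-like to IPC-like cells, 11.7% and 14.4% from IPC-like to newborn cells, 13.9% and 8.45% from newborn to later cells and 6.56% and 12.2% in interneurons against later cells, and the counts of each list stand beside these shares. Of 9 netrin relatives and co-receptors, 8 were tested and Ntn5 was not. From RGC-like to IPC-like cells 3 rose and 1 fell, from IPC-like to newborn cells 3 rose and 1 fell, and from newborn to later cells 3 rose and 3 fell. The list medians were -0.03, 0.66 and 1.03 on the log2 scale, beside 0.00, -0.01 and 0.06 over all genes.

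Dscam, an adhesion receptor that also binds netrin, rose 14.8-fold into IPC-like cells (from 2.28 and 4.48 CPM to 44.7 and 57.7 CPM, adjusted p = 0.00133) and 8.18-fold more into newborn neurons (414 and 341 CPM, adjusted p = 0.00219). Rgma, a ligand of the DCC relative neogenin, fell 6.21-fold into IPC-like cells (adjusted p = 4.21e-05) and 4.74-fold into newborn neurons (adjusted p = 0.000973), and rose 4.67-fold into later neurons (adjusted p = 0.000864). Draxin, a secreted ligand of DCC, rose 4.41-fold from newborn to later neurons (32.6 and 44.5 CPM to 159 and 164 CPM, adjusted p = 6.61e-05). Ntn4, a netrin of the laminin-like type, fell 5.42-fold in the same step (adjusted p = 0.000495).

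Neo1, which encodes neogenin, rose 1.66-fold (adjusted p = 0.0173) and its ligand gene Rgmb 1.72-fold (adjusted p = 0.023) from IPC-like to newborn cells. Rgmb had risen 2.46-fold (adjusted p = 0.00151), and the DSCAM relative gene Dscaml1 3.50-fold (adjusted p = 0.000624), in the step before. Dscaml1 fell 2.07-fold from newborn to later neurons (adjusted p = 0.0159). In MGE interneuron-like against later cells 3 of the 8 rose and 2 fell. Dscam was 52.6-fold lower there (24.1 and 9.61 CPM against 783 and 872 CPM, adjusted p = 0.000134) and Neo1 4.15-fold lower (adjusted p = 2.57e-05), while Ntn4 was 9.36-fold higher (adjusted p = 0.000146) and Dscaml1 7.41-fold higher (adjusted p = 2.81e-05).

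All 9 FLRT partners were tested. From RGC-like to IPC-like cells 1 rose and 2 fell, from IPC-like to newborn cells 4 rose and 1 fell, and from newborn to later cells 4 rose and none fell. In MGE interneuron-like against later cells none rose and 3 fell. The list medians over these 4 comparisons were -0.46, 1.11, 0.32 and -0.61 on the log2 scale, beside 0.00, -0.01, 0.06 and -0.10 over all genes.

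Flrt1, the third FLRT gene, rose 15.8-fold into IPC-like cells, from 3.90 and 5.18 CPM to 66.3 and 77 CPM (adjusted p = 1.31e-07), the step in which Flrt2 fell. Gpc3, a heparan sulfate proteoglycan gene, fell 3.99-fold there (adjusted p = 0.000951) and 13.3-fold into newborn neurons (adjusted p = 0.000516). The latrophilin gene Adgrl2 fell 2.21-fold (adjusted p = 0.0336) and then rose 3.55-fold (adjusted p = 0.00225). The teneurin genes Tenm4 and Tenm2 rose 2.77-fold (adjusted p = 0.000869) and 2.20-fold (adjusted p = 0.0491) into newborn neurons.

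From newborn to later neurons the latrophilin genes Adgrl3 and Adgrl1 rose 6.05-fold (adjusted p = 0.0129) and 2.43-fold (adjusted p = 0.00119), and Tenm1 and Tenm2 rose 5.92-fold (adjusted p = 0.0104) and 4.87-fold (adjusted p = 0.00125). Adgrl3 reached 583 and 1166 CPM, a wide spread between the libraries. In interneurons Tenm1 was 5.57-fold lower (adjusted p = 0.0235), Tenm4 5.43-fold lower (adjusted p = 3.11e-05) and Flrt1 5.01-fold lower (adjusted p = 1.69e-05).

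All 17 genes of DCC and UNC5 signalling were tested, and most did not pass. From RGC-like to IPC-like cells 5 rose and none fell, from IPC-like to newborn cells 4 rose and 3 fell, from newborn to later cells 4 rose and 1 fell, and in interneurons against later cells 1 rose and 3 fell. The medians were 0.43, 0.21, 0.29 and -0.24 on the log2 scale, beside 0.00, -0.01, 0.06 and -0.10 over all genes.

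Trim9 and Trim67 encode ubiquitin ligases that bind DCC. Trim9 rose 6.01-fold into newborn neurons (12.9 and 17.3 CPM to 62.6 and 101 CPM, adjusted p = 0.00137). Trim67 rose at each step, 2.71-fold (adjusted p = 0.0294), 3.19-fold (adjusted p = 0.00316) and 7.17-fold (adjusted p = 9.09e-06), from 1.08 and 0.80 CPM in RGC-like cells to 48.3 and 49.8 CPM in later neurons. Myo10, a myosin that carries DCC into filopodia, rose 2.09-fold into IPC-like cells (adjusted p = 0.0412) and then fell 4.53-fold (adjusted p = 0.000764) and 8.34-fold (adjusted p = 0.000151). Ablim1, an actin-binding protein gene linked to DCC and UNC5 signalling, rose 83.1-fold from newborn to later neurons, from 1.39 and 1.10 CPM to 93.2 and 102 CPM (adjusted p = 2.75e-05).

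Dock1, an activator of RAC1, fell 14-fold from IPC-like to newborn cells (114 and 126 CPM to 5.29 and 9.56 CPM, adjusted p = 7.22e-06). The kinase genes Fyn and Dapk1 rose 1.76-fold (adjusted p = 0.00277) and 1.75-fold (adjusted p = 0.00305) into IPC-like cells, and Ptk2, which encodes focal adhesion kinase, rose 1.73-fold from newborn to later neurons (adjusted p = 0.00298). In interneurons Ablim1 was 15.8-fold lower (adjusted p = 0.000883), Ptk2 1.62-fold lower (adjusted p = 0.00929) and the small GTPase gene Cdc42 1.36-fold lower (adjusted p = 0.024), while the adaptor gene Nck1 was 4.74-fold higher (adjusted p = 5.05e-05).

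Likeness of pattern was described over the 8 fitted classes, each of 10 or more cells per library, among 12254 genes. The genes nearest to Dcc by Pearson's r were Igfbpl1 (r = 0.98), Gabarapl2 (0.98) and Hdac2 (0.96), and those nearest to Unc5d were Kdm2b (0.98), Tmem74 (0.98) and Carmil3 (0.97). Rab30 (0.97), Grm7 (0.97) and Fam20c (0.96) were nearest to Flrt2, and Hook2 (0.98), Kctd6 (0.96) and Arl3 (0.95) to Flrt3. For Unc5c they were Pnmal2 (0.98), Efnb3 (0.97) and Prickle2 (0.96), for Unc5a Ndufaf3 (0.97), Slc35b1 (0.96) and Ckmt1 (0.96), for Unc5b Mansc4 (0.99), Fam183b (0.99) and Pdgfb (0.99), and for Ntn1 Gm11250 (0.97), Afg3l1 (0.97) and Pms2 (0.96). With 8 points that share libraries and depth, and 12254 genes searched, such values are a description of this set of classes.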

How the data were processed

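Per the file headers, the authors made raw UMI counts per gene and barcode with Cell Ranger 7.0.0, and the submitters' processing notes name build mm10. Whether intronic reads were counted is not given in the sources used here. Barcodes with under 1000 genes or over 10% mitochondrial UMIs and doublets called by Scrublet (0.991% and 2.44%) were left out. Cells were clustered on 2000 variable genes and 30 principal components (scanpy 1.11.5, leidenalg 0.10.2, Leiden resolution 1, 20 neighbours). A cluster took the class with the largest share of markers raised by a log2 difference of 1 or more over the median cluster and seen in 25% of cells, with at least 3 raised, and newborn needed Eomes. Shallow clusters and those whose 10 leading genes held more markers of another class stayed unnamed, except that later clusters were not checked against the newborn list. The newborn rule was revised after marker and gene values had been seen, because the first left several alternatives without a newborn class. The 8 genes, the lists and the comparisons were chosen with earlier results of these data known, and all 8 are reported whatever their result. Up to 4 called genes per list are named, by size of change, if both libraries moved the same way.

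UMI counts were summed per class and library, for the 8 classes holding 10 or more cells per library (16 sums), and tested over 14502 genes with edgeR 4.0.16 (R 4.3.3, TMM, filterByExpr, quasi-likelihood test, Benjamini-Hochberg over all genes, called at an adjusted p under 0.05). Sums of the same library are paired by origin. Their deviations from class means correlated at a median of 0.199 over the 6 pairs of stages (0.165 to 0.237) and 0.0823 over all 28 pairs (-0.0117 to 0.237), and the library as a block was an alternative. DESeq2 1.42.0 was another. The classes were defined on the same cells, so tests between classes are not independent of the clustering, although these genes took no part in it. Neurons of upper and deep layers were not compared, because no pair of clusters could be given those names. Fewer cells and less RNA per cell cannot be told apart in sums, and intervals and limits cover counting error only.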

Additional observations from a re-analysis of the deposited data

Results flagged for a closer look

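Barcodes left out by the filters still carried these genes, in most cases at levels above a control set. They were the 456 barcodes of library 2 and the 600 of library 4 that failed a filter or were called doublets and were not led by hemoglobin, and they are set beside 57 and 66 left-out barcodes with over 50% hemoglobin UMIs. Dcc was at 2867 and 2407 CPM, against 29.8 and 6.25 CPM in the hemoglobin-led barcodes. Unc5d was at 602 and 576 CPM against 3.31 and 1.56 CPM, and Flrt2 at 247 and 210 CPM against 3.31 and 1.56 CPM. Unc5c was at 70.8 and 59.6 CPM, Flrt3 at 56.3 and 52.5 CPM and Unc5a at 10.4 and 11.3 CPM, each with no UMI in the hemoglobin-led barcodes. Unc5b was at 21.2 and 6.11 CPM against 3.31 and 0 CPM, and Ntn1 at 11.3 CPM in library 4 against 0 CPM. Ntn1 in library 2, at 8.11 CPM, is not shown to be above its control, where a count of 0 allows up to 9.93 CPM. These barcodes were given no cell class, and their part in the class values was not tested.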

How the results depend on the processing

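Of the 15 called changes, each recomputed under 15 alternatives, 189 of 225 values kept their direction and call, 34 kept the direction only and 2 reversed. With 1 library left out none of 30 values for called changes reversed, and 7 moved by over 1.5 times on the fold scale. They carry no test, and the report gives those 7. The library as replicate block changed no call, with 4, 2, 5 and 4 genes called in the 4 comparisons, in the order RGC-like to IPC-like, to newborn, to later and later to MGE interneuron-like, as without it, and 3717, 4063, 3596 and 2969 of all genes. Counting clusters with more newborn leading genes as newborn, and sub-clusters of the mixed cluster in their classes, was chosen after seeing the data.

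In the first step the count of the 8 genes went from 4 to 2 and of all genes from 3373 to 1945 with genes scaled within each library, and all genes to 2133 with cells thinned to 5000 UMIs. In the second the 8 genes went from 2 to 1 (at least 500 genes, where the gene was Ntn1 and neither of the 2 kept its call) and 0 (at most 5% mitochondrial UMIs, where edgeR called none, 3 had an unadjusted p under 0.05 and the lowest adjusted p was 0.0519), and all genes from 3787 to 1662 (at least 500 genes), 2012 (doublets kept), 1465 (separate UMIs) and 2193 (thinned). From newborn to later the 8 genes went from 5 to 3 (at least 500 genes, 5% mitochondrial UMIs, separate UMIs, mixed sub-clusters) and 2 (doublets kept), with Ntn1, lower, as the new 1 among them with 500 genes, doublets and separate UMIs, and all genes from 3249 to 2041 (thinned) and 5225 (compared classes only). Against interneurons they went from 4 to 2 (doublets kept) and from 2726 to 1659 (thinned).

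Reversed log2 values were, for the first step, 0.80 for Ntn1 (mixed sub-clusters), -0.86, -0.93 and -0.11 for Unc5b (500 genes, 5% mitochondrial, separate UMIs), -0.41 and -1.81 for Unc5c (resolution 0.5, scaled) and 0.32 for Flrt2 (500 genes). For the second they were 3.36, 2.88 and 2.08 for Ntn1 (500 genes, doublets, separate UMIs), 0.25, 0.19, 0.14 and 0.32 for Unc5a (doublets, resolution 0.5, resolution 2, separate UMIs), 1.73, 1.24 and 1.36 for Unc5b (500 genes, 5% mitochondrial, separate UMIs), and 1.34, 1.63, 0.76, 0.34, 4.58, 0.33 and 0.11 for Unc5c (500 genes, doublets, resolution 0.5, resolution 2, separate UMIs, newborn leading genes, mixed sub-clusters), of which 4.58 passed the test (adjusted p = 0.00271). From newborn to later they were -3.61, -3.36, -0.0351 and -3.79 for Ntn1 (500 genes, doublets, resolution 2, separate UMIs), -0.0475 for Unc5b and -0.96 for Unc5c (separate UMIs). The newborn class changed most: with doublets kept it held 96 cells and with separate UMIs 102, of which 2 and 0 were newborn in the main clustering. Other causes were not tested. No alternative was run for upper against deep layers. Ntn1 did not pass the filter on low counts in any fit of thinned cells, nor with the compared classes alone except from RGC-like to IPC-like, and Unc5b did not with the compared classes alone from IPC-like to newborn. Depth limits Ntn1 and Unc5b most, with 207 and 226 UMIs over the 4 stages.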
